A study of Homo sapiens with 6 samples.

Results

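The clade B serpins described here were SERPINB1, SERPINB2, SERPINB3, SERPINB4, SERPINB5, SERPINB7, SERPINB8 and SERPINB13. These 8 of the 18358 genes of the deposited table were chosen by name, with earlier results of these data known. They were measured by RNA-seq in ME180, a long-established human cell line of cervical epidermoid carcinoma. Per the labels, VPS13C knockout cells (sgVPS13C, 3 libraries) were set against cells with vector (3 libraries), and both received 2 µM cisplatin for 48 h. The VPS13C protein moves lipids between membranes as a bridge, and cisplatin is a platinum drug that crosslinks DNA. The comparison asks which RNAs differ in cisplatin-treated VPS13C knockout cells. No cells without cisplatin were analysed here. Whether the knockout was 1 clone or a mixed population, and whether replicates were separate cultures, is not in the labels. The p-values therefore reflect only variation among the 6 libraries, and it may be technical.

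Serpins trap proteases by a large change of shape after the protease cuts their reactive loop. Clade B members mostly lack a classical signal peptide and act inside cells, and many are abundant in stratified squamous epithelium. SERPINB3 and SERPINB4 are the squamous cell carcinoma antigens, serum markers of cervical squamous cancer. SERPINB1, also called leukocyte elastase inhibitor, lies on chromosome 6, and the other 7 lie in a cluster on chromosome 18.

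The RefSeq sequences just upstream of the transcription starts (GRCh38.p14, 250 bases each, 5′ to 3′ on the gene's strand) are shown for the 4 members that rose and for SERPINB2, all in that cluster. Whether these sequences bear on the differences was not tested. Capitals mark the AP-1 letters TGAGTCA, which read TGACTCA on the other strand.

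SERPINB5, chr18:63476708-63476957, plus strand: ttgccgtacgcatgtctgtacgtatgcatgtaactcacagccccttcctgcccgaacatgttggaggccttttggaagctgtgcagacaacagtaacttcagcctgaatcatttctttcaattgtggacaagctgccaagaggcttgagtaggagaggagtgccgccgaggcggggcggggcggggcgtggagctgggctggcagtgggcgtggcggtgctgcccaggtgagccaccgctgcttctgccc

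SERPINB7 (start 63777781), chr18:63777531-63777780, plus strand: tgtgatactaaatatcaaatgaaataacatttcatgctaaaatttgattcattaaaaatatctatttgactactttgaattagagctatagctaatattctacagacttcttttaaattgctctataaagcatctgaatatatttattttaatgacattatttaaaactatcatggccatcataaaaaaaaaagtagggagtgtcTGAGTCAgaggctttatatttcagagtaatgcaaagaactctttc

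SERPINB8, chr18:63969831-63970080, plus strand: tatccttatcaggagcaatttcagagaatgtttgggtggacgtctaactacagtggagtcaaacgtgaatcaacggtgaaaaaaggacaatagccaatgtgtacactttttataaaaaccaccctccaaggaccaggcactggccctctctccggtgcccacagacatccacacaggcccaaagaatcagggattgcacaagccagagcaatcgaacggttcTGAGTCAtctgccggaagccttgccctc

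SERPINB13, chr18:63587093-63587342, plus strand: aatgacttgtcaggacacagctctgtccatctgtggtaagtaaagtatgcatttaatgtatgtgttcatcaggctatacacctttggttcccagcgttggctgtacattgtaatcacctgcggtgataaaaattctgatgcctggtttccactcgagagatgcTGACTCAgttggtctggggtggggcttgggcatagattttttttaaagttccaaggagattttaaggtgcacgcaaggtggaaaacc

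SERPINB2, chr18:63887455-63887704, plus strand: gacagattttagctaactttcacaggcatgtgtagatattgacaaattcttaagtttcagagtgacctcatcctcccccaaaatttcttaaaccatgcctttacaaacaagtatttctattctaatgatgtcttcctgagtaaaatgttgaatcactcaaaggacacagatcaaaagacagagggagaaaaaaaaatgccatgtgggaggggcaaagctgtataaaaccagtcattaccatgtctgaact

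The AP-1 letters stood 87 bases upstream of the SERPINB13 start, 28 bases upstream of the SERPINB8 start, and 39 and 45 bases upstream of the SERPINB7 starts at 63775418 and 63777781. The windows of SERPINB5, SERPINB2, SERPINB3, SERPINB4, SERPINB1 and the first SERPINB7 start (63753057) did not hold them. Over 35116 windows of the same length, 4.2% held these letters. The letters TATAAA, or TTTATA on the other strand, stood in the windows of SERPINB2, SERPINB8 and the SERPINB7 start at 63777781, and in 10.7% of all windows. These matches describe letters, and no binding was measured.

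The squamous cell carcinoma antigens are shown next because their RNAs are hard to tell apart. Capitals mark the bases that differ between them.

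SERPINB3, chr18:63661894-63662143, minus strand: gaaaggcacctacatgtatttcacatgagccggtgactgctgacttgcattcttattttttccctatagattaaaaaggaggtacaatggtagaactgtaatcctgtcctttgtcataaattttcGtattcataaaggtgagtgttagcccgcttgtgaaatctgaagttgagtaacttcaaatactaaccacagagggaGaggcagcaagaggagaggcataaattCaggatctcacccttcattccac

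SERPINB4, chr18:63644257-63644506, minus strand: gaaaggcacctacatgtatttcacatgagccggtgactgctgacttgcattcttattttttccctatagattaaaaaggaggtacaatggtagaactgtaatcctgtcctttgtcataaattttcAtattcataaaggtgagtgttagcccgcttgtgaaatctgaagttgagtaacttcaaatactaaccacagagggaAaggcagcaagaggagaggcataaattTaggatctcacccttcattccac

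Of these 250 bases, 3 differed, so 98.8% were identical. The transcripts also overlap in sequence: 23.9% of the 50-base stretches of the SERPINB3 transcript occurred in SERPINB4, and 24.3% of those of SERPINB4 occurred in SERPINB3. Reads were 50 bases long, so counts of this pair are uncertain. SERPINB2 shared 26.8% of its stretches with transcripts annotated to SERPINB10, and SERPINB8 shared 9.68% with HMSD, while SERPINB5, SERPINB7, SERPINB13 and SERPINB1 shared 0%.

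Total counts ran from 14774100 to 15799100 per library. VPS13C RNA had 28.6, 18.6 and 23.7 CPM (counts scaled to library size with TMM factors) in knockout libraries 1 to 3, against 48.1, 30.1 and 35 CPM in vector libraries 1 to 3. The groups did not overlap, but the log2 fold change of -0.67 (SE 0.22) missed the threshold (adjusted p = 0.0513 by edgeR's quasi-likelihood test), and VPS13C RNA was still counted in every knockout library. It passed the threshold in 8 of 18 alternatives. It did so with each library's length trend removed (-0.74, adjusted p = 4.32e-04), RLE factors (-0.68, adjusted p = 0.0493) and no low-count filter (-0.67, adjusted p = 0.0474) in edgeR's quasi-likelihood test, and with DESeq2 (-0.68, adjusted p = 0.0144). It also passed without knockout library 1 (-0.84) or vector library 2 (-0.81), and in both fits with the replicate number as a block. Of 13717 genes tested, 2440 were called higher and 2381 lower in the knockout, at an adjusted p under 0.05. Without knockout library 3 these counts were 1551 and 1475, and without vector library 3 they were 1582 and 1521. The squamous character of the line showed in its markers: summed over 8 fixed genes of stratified squamous epithelium, including KRT5 and TP63, they reached 20172 to 24680 CPM in knockout libraries and 12348 to 15870 CPM in vector libraries.

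Of the 8 serpins, 6 had enough counts to be tested. In the knockout 4 of them were called higher and 0 lower, where the background was 17.8% of all tested genes called higher and 17.4% called lower. SERPINB13 rose most of these 4, and SERPINB7, SERPINB5 and SERPINB8 rose by less. SERPINB2 and SERPINB3 were not called, and SERPINB4 and SERPINB1 were near the counting floor. The median log2 fold change of the 6 tested members was 0.44, beside 0.00 over all tested genes. The tested members passed a filter on counts, so this median does not cover SERPINB4 and SERPINB1. Members were chosen with earlier results of these data known, so these counts and this median are descriptions and not a test. In bulk RNA, fewer cells of a type and less RNA per cell cannot be told apart.

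**Figure D1:**
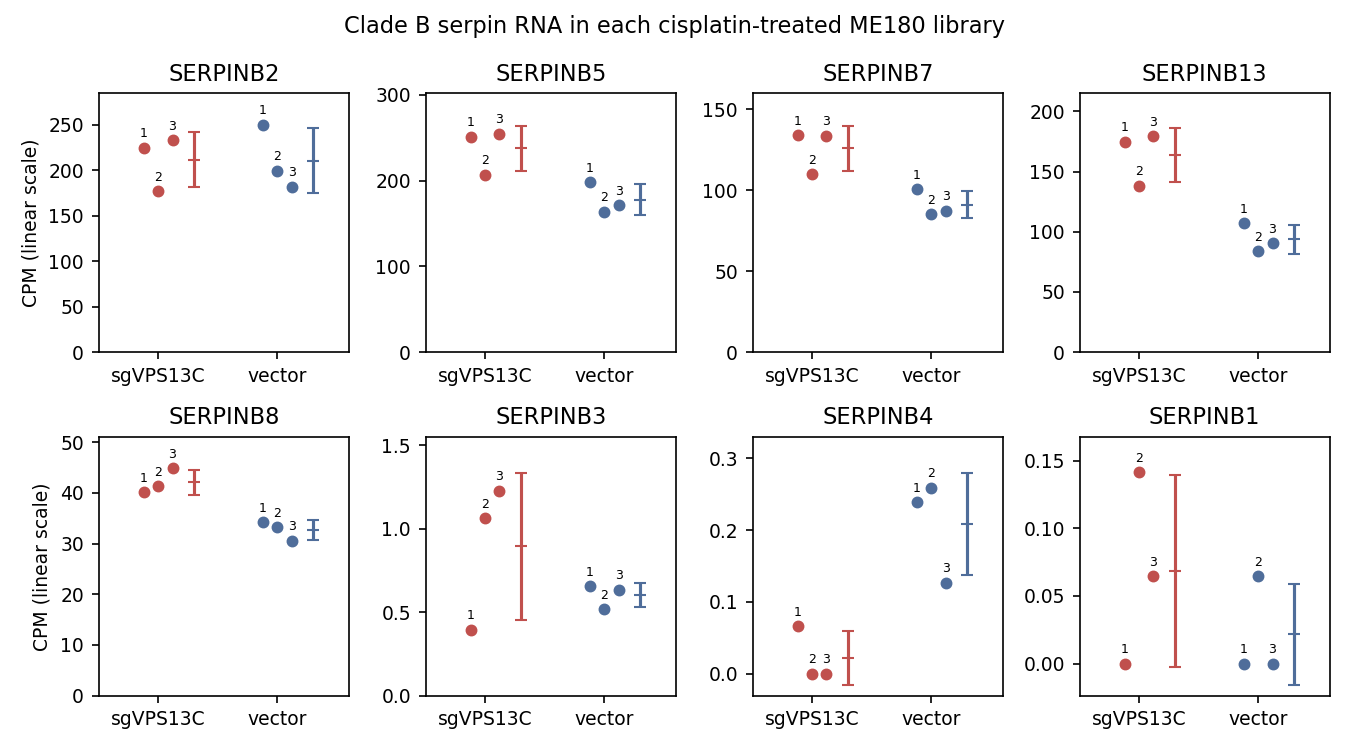
RNA level of each of the 8 serpins in CPM (linear axis, its own scale in each panel) in 3 sgVPS13C libraries (red, left) and 3 vector libraries (blue, right), with library numbers beside the points and the mean ± SD beside each group. SERPINB5, SERPINB7, SERPINB13 and SERPINB8 do not overlap between groups, SERPINB2 overlaps widely, and the last 3 panels lie at or under 1.23 CPM.

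SERPINB13, also called headpin, is a keratinocyte serpin that inhibits the cathepsins L and K. It had 175, 138 and 179 CPM in knockout libraries 1 to 3, against 107, 84.0 and 90.4 CPM in vector libraries 1 to 3. Every knockout library was above every vector library, as were those of 24.5% of all tested genes. The mean was 164 ± 22.5 CPM in knockout libraries and 93.8 ± 11.9 CPM in vector libraries (SD, n = 3 each), a 1.75-fold difference. The log2 fold change was 0.81 (SE 0.14, 95% interval 0.47 to 1.14) with an adjusted p of 0.00497 by edgeR's quasi-likelihood test. It was called in all 18 alternative analyses run, with log2 fold changes of 0.72 to 0.92 and an adjusted p of at most 0.0326 by the tool of each.

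SERPINB7, known as megsin, is a serpin of keratinocytes and kidney mesangial cells, and its loss causes a palmoplantar keratosis. It had 134, 109.8 and 134 CPM in knockout libraries 1 to 3, against 101, 85.2 and 87.5 CPM in vector libraries 1 to 3. The groups did not overlap, with the lowest knockout library, the second, above the highest vector library, the first. The log2 fold change was 0.47 (SE 0.12, 95% interval 0.18 to 0.75; adjusted p = 0.0223, edgeR's quasi-likelihood test).

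SERPINB5, known as maspin, is an epithelial serpin that does not inhibit proteases in the usual way and was described as a tumour suppressor in breast. It had 251, 207 and 254 CPM in knockout libraries 1 to 3, against 198, 164 and 171 CPM in vector libraries 1 to 3. Here too the groups did not overlap, but the gap between the second knockout library and the first vector library was small. The mean was 238 ± 26.4 CPM in knockout libraries and 178 ± 18.1 CPM in vector libraries (SD, n = 3 each). The log2 fold change was 0.42 (SE 0.12, 95% interval 0.13 to 0.71; adjusted p = 0.0358, edgeR's quasi-likelihood test).

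SERPINB8 inhibits furin, a proprotein convertase. It had 40.1, 41.3 and 44.8 CPM in knockout libraries 1 to 3, against 34.2, 33.2 and 30.6 CPM in vector libraries 1 to 3. The groups did not overlap, and the spread within each, relative to its mean, was smaller than for the other members that rose. The log2 fold change was 0.36 (SE 0.10, 95% interval 0.12 to 0.60; adjusted p = 0.0294, edgeR's quasi-likelihood test).

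The calls of SERPINB5, SERPINB7 and SERPINB8 were lost in several of the analyses that left out 1 library. Without knockout library 1, knockout library 3, vector library 2 or vector library 3, only SERPINB13 of the members stayed called. Genes called higher over the whole table also fell, from 2440 to 1867, 1551, 1861 and 1582 in that order. Over all 6 analyses that left out 1 library, SERPINB5 ranged from 0.35 to 0.51, SERPINB7 from 0.41 to 0.56 and SERPINB8 from 0.30 to 0.39 on the log2 scale, with adjusted p of up to 0.156, 0.110 and 0.142 by edgeR's quasi-likelihood test. All 3 stayed higher in the knockout in each of these analyses.

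SERPINB2, or plasminogen activator inhibitor 2, inhibits urokinase. It had 225, 177 and 233 CPM in knockout libraries 1 to 3, against 250.2, 199 and 182 CPM in vector libraries 1 to 3. The groups overlapped widely, with the highest single value in vector library 1 and the lowest in knockout library 2. The mean was 212 ± 30.1 CPM in knockout libraries and 211 ± 35.4 CPM in vector libraries (SD, n = 3 each). Its log2 fold change was 0.01 (SE 0.16; adjusted p = 0.976, edgeR's quasi-likelihood test), with a 95% interval of -0.37 to 0.38, which does not show that the groups were equal.

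**Figure D2:**
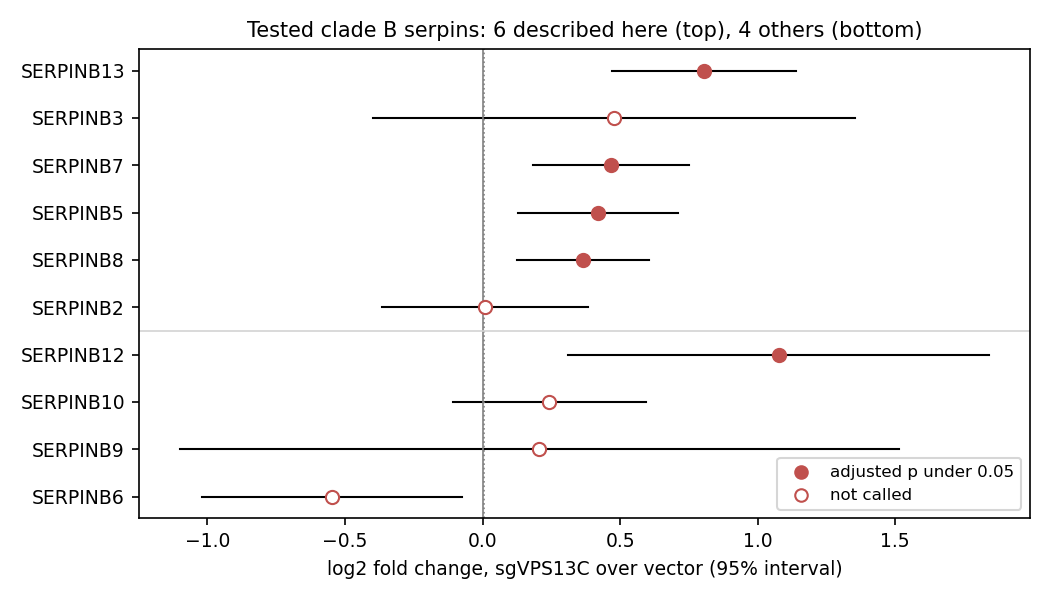
Log2 fold change, sgVPS13C over vector, of each tested clade B serpin, with its 95% interval. Filled points have an adjusted p under 0.05, and the dotted line, which lies close to the grey line at 0, is the median of all tested genes. SERPINB13 stands farthest to the right of the 6 members above the divider at 0.81, and the interval of SERPINB2 covers 0.

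The squamous cell carcinoma antigens were barely counted in these cells. SERPINB3, or SCCA1, inhibits cathepsins L, S and K, and it had 6, 15 and 19 counts in knockout libraries 1 to 3, against 11, 8 and 10 counts in vector libraries 1 to 3. The groups overlapped, with knockout library 1 the lowest of the 6. Its log2 fold change was 0.48 (SE 0.37; adjusted p = 0.362, edgeR's quasi-likelihood test). It was 0.79 without knockout library 1, 0.20 without knockout library 3 and 0.16 with limma on log2(FPKM + 1), and was not called in any alternative run. SERPINB4, or SCCA2, inhibits the serine proteases cathepsin G and chymase. It had 1, 0 and 0 counts in knockout libraries 1 to 3, against 4, 4 and 2 counts in vector libraries 1 to 3. Every knockout library was below every vector library, as were those of 24% of all tested genes, but SERPINB4 was not among the genes tested. A count of 0 allows up to 3 counts, or 0.213 CPM in knockout library 2 and 0.194 CPM in knockout library 3.

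Pooled over libraries, SERPINB4 had 1 count in the knockout and 10 counts with vector. The ratio of knockout over vector, scaled for library size, was 0.107, with a 95% interval of 0.00246 to 0.752 that covers counting error only. With no low-count filter its log2 fold change was -1.16, at an adjusted p of 0.0659 by edgeR's quasi-likelihood test. SERPINB3 and SERPINB4 summed as 1 gene gave a log2 fold change of 0.15 (SE 0.33; adjusted p = 0.760, edgeR's quasi-likelihood test). Without knockout library 3 the sum turned to -0.10. The share of SERPINB3 in the sum was 85.7%, 100% and 100% in knockout libraries 1 to 3, against 73.3%, 66.7% and 83.3% in vector libraries 1 to 3. These shares did not overlap, with p = 0.1 by an exact permutation test (two-sided), which cannot go lower with 3 libraries against 3. The pair shares long stretches of sequence, so this share depends on how reads were assigned.

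SERPINB1 inhibits neutrophil elastase, cathepsin G and proteinase 3. It had 0, 2 and 1 counts in knockout libraries 1 to 3, against 0, 1 and 0 counts in vector libraries 1 to 3. It was not detectable above the floor in either group, and no fold change is given.

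On the per-length scale the abundant members kept 1 order in all 6 libraries. FPKM, the level scaled for length and depth, was highest for SERPINB2, then SERPINB5, SERPINB7, SERPINB13 and SERPINB8. In knockout libraries SERPINB2 ranged from 99.99 to 142 FPKM and SERPINB5 from 82.8 to 111 FPKM, and these ranges overlapped. SERPINB7, at 59.8 to 80.4 FPKM, and SERPINB13, at 45.0 to 62.2 FPKM, also overlapped there. In vector libraries none of the neighbours in this order overlapped, with SERPINB13 at 28.8 to 39.0 FPKM below SERPINB7 at 48.2 to 61.5 FPKM. SERPINB8 was lowest of the 5, at 13.2 to 15.8 FPKM in knockout libraries and 10.4 to 12.4 FPKM in vector libraries.

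Ratios within a library show the unequal size of the differences. They were chosen after the values were seen. The FPKM ratio of SERPINB13 to SERPINB5 was 0.556, 0.543 and 0.566 in knockout libraries 1 to 3, against 0.432, 0.419 and 0.428 in vector libraries 1 to 3. The ratio of SERPINB2 to SERPINB5 was 1.26, 1.21 and 1.29 in knockout libraries 1 to 3, against 1.78, 1.71 and 1.5 in vector libraries 1 to 3. Neither ratio overlapped between groups, and each had p = 0.1, the lowest value possible for 3 libraries against 3 in an exact permutation test (two-sided). SERPINB7 to SERPINB5 averaged 0.719 ± 0.00675 in knockout libraries and 0.692 ± 0.0107 in vector libraries (SD, n = 3 each), also without overlap and at the exact permutation p of 0.1. The ratio of SERPINB8 to SERPINB5 overlapped, at 0.144 ± 0.0153 in knockout libraries and 0.147 ± 0.0145 in vector libraries (SD, n = 3 each).

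**Figure D3:**
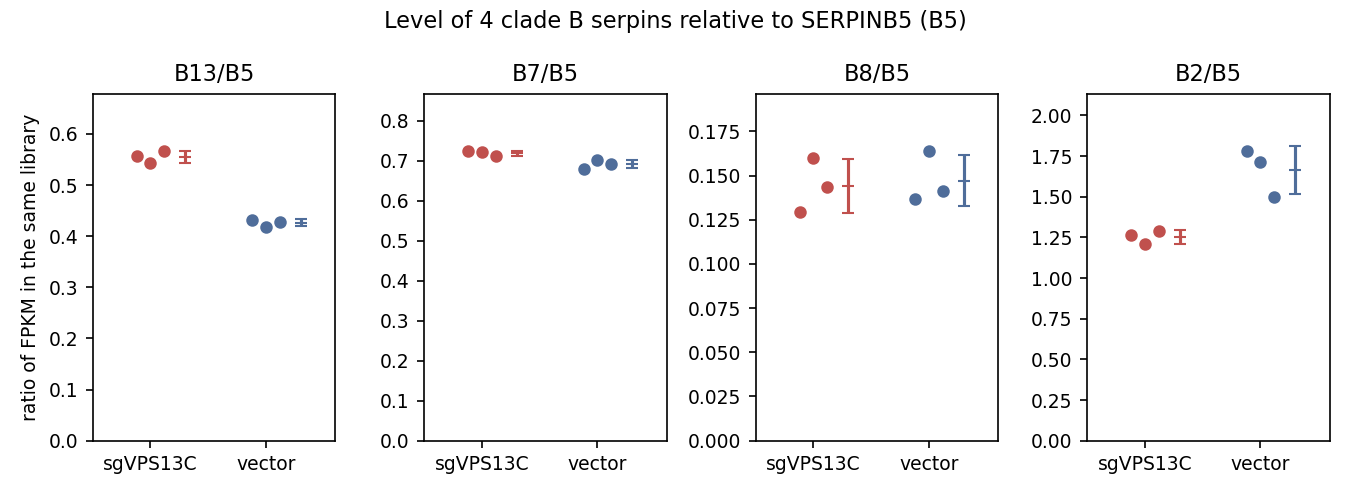
FPKM of SERPINB13, SERPINB7, SERPINB8 and SERPINB2 (B13, B7, B8, B2) divided by that of SERPINB5 (B5) in the same library, for 3 sgVPS13C libraries (red, left) and 3 vector libraries (blue, right), with mean ± SD beside the points and axes from 0. B13/B5 is higher and B2/B5 lower in every sgVPS13C library, while B8/B5 overlaps.

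SERPINB5, SERPINB7 and SERPINB13 moved together between libraries of 1 group. Their deviations from the group means of log2 CPM had Pearson correlations of 0.991 to 0.998 over 6 libraries, and SERPINB2 followed SERPINB5 at 0.933, while SERPINB8 followed it at 0.417. These values share libraries and their depth, and they are descriptions. Such correlations were not computed for other gene pairs, so they are not read as a trait of these serpins. The same libraries differed in how level depended on transcript length: log2 CPM changed by 0.13, -0.12 and 0.05 per doubling of length in knockout libraries 1 to 3, against 0.12, -0.12 and -0.06 in vector libraries 1 to 3. With each library's length trend removed, the log2 fold changes were 0.81 for SERPINB13, 0.49 for SERPINB7, 0.43 for SERPINB5 and 0.37 for SERPINB8, and all 4 stayed called.

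The genes most like each abundant member were those with the highest Pearson correlation of log2 CPM over the 6 libraries, among 11399 genes. For SERPINB13 they were RNF14, BCL2L13 and FOXO4, for SERPINB7 PAFAH1B1, TMOD2 and FZD1, and for SERPINB5 SLC25A46, EFCAB7 and YIPF5. For SERPINB8 they were ATP23, RNF227 and LURAP1L, and for SERPINB2 ANKRD50, PNPLA8 and NR3C2. The 15 correlations were 0.987 or above, and were picked from many genes over few libraries.

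Transcript counts were thinner evidence. Of 29 RefSeq transcripts of the 8 genes 22 were tested, and 0 were called in either direction by edgeR's quasi-likelihood test, against 1.19% called higher and 1.16% called lower of all 40948 tested transcripts. At an unadjusted p under 0.05, 5 were higher and 0 lower by the same test. The share of all transcripts at that threshold was not computed, so this split has no background and is not read as a rise. SERPINB7 was mostly NM_001261830.1, which carried 89.2%, 92.7% and 85.3% of its counts in knockout libraries 1 to 3, against 78.5%, 81.0% and 88.6% in vector libraries 1 to 3. Those shares overlapped. This transcript had a log2 fold change of 0.56 (SE 0.11; adjusted p = 0.0741, edgeR's quasi-likelihood test), while NM_003784.4 had -0.18 (SE 0.43).

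For SERPINB13, NM_012397.4 had 92.1, 79.2 and 97.0 CPM in knockout libraries 1 to 3, against 61.4, 33.4 and 56.0 CPM in vector libraries 1 to 3, a log2 fold change of 0.83 without overlap (adjusted p = 0.200, edgeR's quasi-likelihood test). The only tabled SERPINB5 transcript, NM_002639.5, had 0.40 (adjusted p = 0.243), and the main SERPINB8 transcript, NM_002640.4, had 0.49 (adjusted p = 0.292), both on the log2 scale by the same edgeR quasi-likelihood test. The main SERPINB2 transcript, NM_002575.3, had 0.00. SERPINB8 transcript NM_198833.1 had 32.5, 0 and 0 counts in knockout libraries 1 to 3, against 88.5, 47.1 and 64.6 counts in vector libraries 1 to 3, which did not overlap but was not called. The balance of transcripts was tested in SERPINB2, SERPINB7, SERPINB8 and SERPINB13, and 0 were called by edgeR's diffSpliceDGE, where 0.232% of 9062 genes were.

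The chromosome 18 cluster spans chr18:63476958-64019779 and SERPINB1 spans chr6:2832332-2841863 (GRCh38.p14). Along the cluster the serpins called higher were SERPINB5, SERPINB12, SERPINB13, SERPINB7 and SERPINB8, with SERPINB2 and SERPINB10 between the last pair. Within 1 Mb of the cluster, members left out, 8 genes were tested, and 1, SERPINB12, was called higher and 0 lower. The shares over all tested genes were 17.8% and 17.4%, and the median log2 fold change of the 8 was 0.11. That median turned to -0.03 without knockout library 1, ran up to 0.18 when other single libraries were left out, and was 0.00445 over genes with at least 10 CPM in 3 libraries. The 6 of these genes that are not serpins had a median of -0.05, and 0 were called. The nearest tested gene before the cluster, VPS4B, an ATPase that disassembles ESCRT filaments, had 78.1 ± 15 CPM in knockout libraries and 78.1 ± 19.4 CPM in vector libraries (SD, n = 3 each). The nearest after it, DSEL, lay outside that distance and averaged 0.425 ± 0.166 CPM in knockout libraries and 4.21 ± 0.398 CPM in vector libraries (SD, n = 3 each; log2 fold change -2.97, adjusted p = 2.10e-04, edgeR's quasi-likelihood test).

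Within 1 Mb of SERPINB1, 13 genes were tested, of which 1 was called higher (SLC22A23) and 1 lower (TUBB2B). Among all tested genes the shares were 17.8% and 17.4%, and the median log2 fold change of the 13 was 0.17. Without knockout library 2 that median was -0.08. Its nearest tested neighbours, WRNIP1 and NQO2, had log2 fold changes of -0.13 and 0.65, and neither was called.

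**Figure D4:**
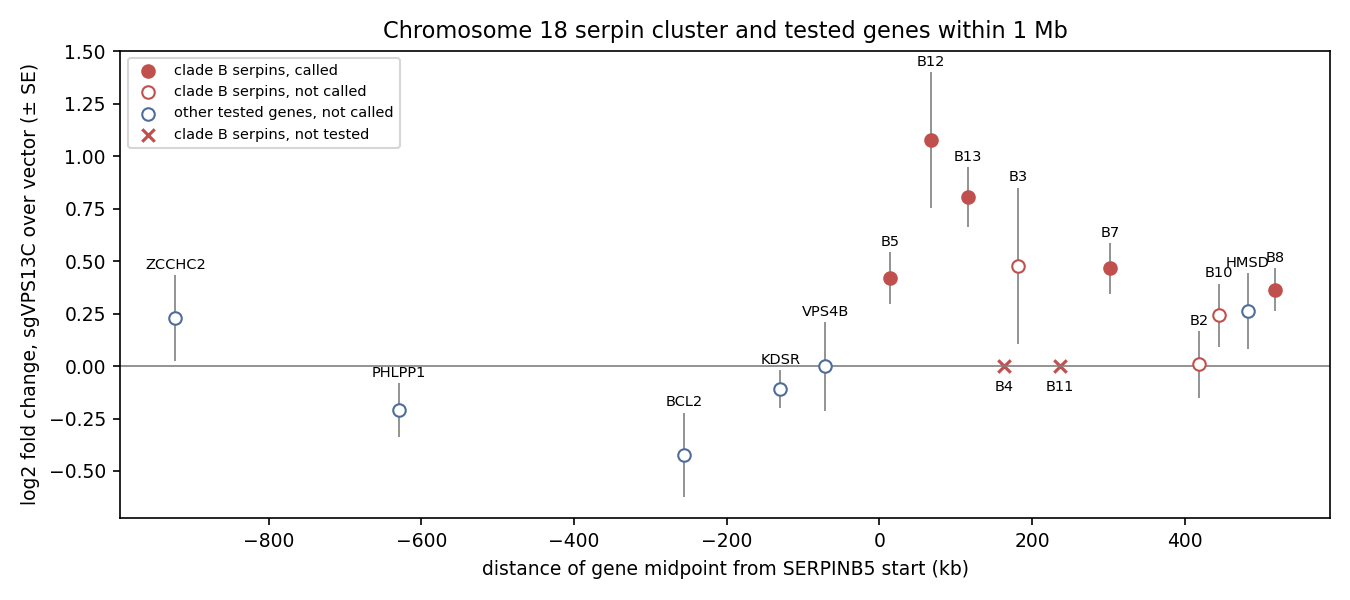
Log2 fold change, sgVPS13C over vector, with its SE for the tested genes of the chromosome 18 serpin cluster and within 1 Mb, at the distance of each gene's midpoint from the SERPINB5 start in kb. Red points are clade B serpins (B5 stands for SERPINB5), blue points are other genes, filled points were called, and crosses at 0 mark serpins not tested. The called serpins lie on both sides of SERPINB3, and no blue point is filled.

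Of the other 5 clade B serpins 4 were tested. SERPINB12, an epithelial serpin, had 11, 10 and 17 counts in knockout libraries 1 to 3, against 8, 5 and 3 counts in vector libraries 1 to 3, without overlap. It was called higher, with a log2 fold change of 1.08 (SE 0.33; adjusted p = 0.0385, edgeR's quasi-likelihood test). Leaving out knockout library 1, knockout library 3, vector library 2 or vector library 3 took the call away, with values of 1.16, 0.86, 1.06 and 0.87 on the log2 scale. The call was also lost with DESeq2 (1.34, adjusted p = 0.0732) and with limma on log2(FPKM + 1) (0.19, adjusted p = 0.0611), a scale that understates changes of low genes. SERPINB6, an intracellular inhibitor of cathepsin G, had 36.3 ± 5.68 CPM in knockout libraries and 53.1 ± 12.3 CPM in vector libraries (SD, n = 3 each), and missed the threshold (log2 fold change -0.55, adjusted p = 0.0737, edgeR's quasi-likelihood test). It passed without knockout library 2 (-0.67) and without vector library 1 (-0.73), with each library's length trend removed (-0.51), with library size only (-0.58, adjusted p = 0.0360 by edgeR's quasi-likelihood test), with DESeq2 (-0.55, adjusted p = 0.0331) and in both fits with the replicate number as a block. SERPINB9, the inhibitor of granzyme B, and SERPINB10 were not called, with log2 fold changes of 0.21 and 0.24, and SERPINB11 was not tested at 7 counts in the knockout and 5 with vector.

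Of 21 listed serpins of other clades 18 were in the table and 10 were tested, of which 4 were higher and 1 was lower. The shares over all tested genes were 17.8% higher and 17.4% lower. SERPINE2, or protease nexin-1, averaged 134 ± 6.77 CPM in knockout libraries and 80.1 ± 2.77 CPM in vector libraries (SD, n = 3 each; log2 fold change 0.74, adjusted p = 9.13e-04, edgeR's quasi-likelihood test). SERPINI1, or neuroserpin, averaged 16.2 ± 1.27 CPM in knockout libraries and 7.07 ± 0.769 CPM in vector libraries (SD, n = 3 each; log2 fold change 1.18, adjusted p = 6.27e-04, same test). SERPINA1, or alpha-1-antitrypsin, and SERPINE3 were called higher, with log2 fold changes of 1.31 and 1.65. SERPINE3 was low, at 31, 15 and 22 counts in knockout libraries 1 to 3, against 10, 2 and 7 counts in vector libraries 1 to 3. The call of SERPINE3 was lost without knockout library 1, knockout library 3 or vector library 3, at 1.38, 1.68 and 1.71, and with limma on log2(FPKM + 1), at 0.12 (adjusted p = 0.136).

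SERPINB2 acts in the plasminogen system, in which urokinase and tissue plasminogen activator turn plasminogen into plasmin. PLAUR, the urokinase receptor, had 6.63, 7.51 and 8.40 CPM in knockout libraries 1 to 3, against 25.2, 30 and 27.3 CPM in vector libraries 1 to 3 (log2 fold change -1.85, adjusted p = 1.20e-04, edgeR's quasi-likelihood test). PLAT, tissue plasminogen activator, had 5.84, 5.60 and 4.01 CPM in knockout libraries 1 to 3, against 21.0, 21.4 and 21.2 CPM in vector libraries 1 to 3 (log2 fold change -2.02, adjusted p = 1.63e-04, same test). PLAU, or urokinase, the protease that SERPINB2 inhibits, was named after its values were seen. It averaged 190.2 ± 11.6 CPM in knockout libraries and 189 ± 4.31 CPM in vector libraries (SD, n = 3 each), with a log2 fold change of 0.01 (SE 0.09) that was not called. PLG, which encodes plasminogen, was not tested.

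Of 15 listed proteases that clade B serpins inhibit, 12 were in the table and 10 were tested, with 4 higher and 2 lower. Among all tested genes 17.8% were higher and 17.4% lower. CASP1, an inflammatory caspase, averaged 123 ± 5.89 CPM in knockout libraries and 55.3 ± 2.72 CPM in vector libraries (SD, n = 3 each; log2 fold change 1.15, adjusted p = 1.88e-04, edgeR's quasi-likelihood test). CTSL, or cathepsin L, a target of SERPINB13 and SERPINB3, averaged 111 ± 4.13 CPM in knockout libraries and 75.9 ± 1.39 CPM in vector libraries (SD, n = 3 each; log2 fold change 0.54, adjusted p = 0.00297, same test). FURIN, the target of SERPINB8, averaged 44.0 ± 1.22 CPM in knockout libraries and 32.8 ± 1.73 CPM in vector libraries (SD, n = 3 each), and its log2 fold change of 0.43 lost its call without knockout library 3 (0.40) or vector library 3 (0.42). CTSV, another lysosomal cathepsin, was called higher at 0.34, a call lost without knockout library 1 (0.35), knockout library 3 (0.30), vector library 2 (0.33) or vector library 3 (0.37). PLAT, given above, and CTSS were lower. CTSS, or cathepsin S, had -0.72, and its call was lost without knockout library 1 (-0.64), knockout library 2 (-0.63), vector library 2 (-0.74) or vector library 3 (-0.74).

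The cystatins, inhibitors of cysteine proteases with an overlapping set of targets, had 3 of 7 listed genes tested, with 2 higher and 0 lower. The background was again 17.8% of all tested genes higher and 17.4% lower. CSTA, a cornified envelope component, averaged 524 ± 94.0 CPM in knockout libraries and 341 ± 47.3 CPM in vector libraries (SD, n = 3 each; log2 fold change 0.62). Its call was lost without knockout library 3 (0.59), vector library 1 (0.52) or vector library 3 (0.62). CSTB averaged 474 ± 90.2 CPM in knockout libraries and 261 ± 46.6 CPM in vector libraries (SD, n = 3 each; log2 fold change 0.86, adjusted p = 0.0111, edgeR's quasi-likelihood test), and CST3 was not called.

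Cell type markers also differed between the groups, in both directions. Over all tested genes 17.8% were called higher and 17.4% lower. Of 8 squamous markers 5 were called higher and 0 lower, with a median log2 fold change of 0.70. KRT17 (-0.23), TP63 (0.56) and SFN (0.30) were not called. Of 5 simple epithelial markers 0 were higher and 4 lower, with summed levels of 2726 to 4152 CPM in knockout libraries and 3684 to 5091 CPM in vector libraries. Of 7 leukocyte and macrophage markers 4 were tested and 2, CD68 and ITGAM, were lower, and the list summed to 43.1 to 47.1 CPM in knockout libraries and 74.3 to 89.1 CPM in vector libraries. The leukocyte-defining PTPRC had 0 counts in every knockout library and 1 count in all vector libraries together. CD14 was at most 0.283 CPM in any library. Of 6 fibroblast markers 5 were in the table and 2 were tested, with 1, DCN, higher, and sums of 47.0 to 50.2 CPM in knockout libraries and 37.0 to 44.2 CPM in vector libraries. Of 3 endothelial markers 2 were tested, with VWF higher and CDH5 lower, and sums of 21.7 to 24.7 CPM in knockout libraries and 7.80 to 8.13 CPM in vector libraries. PECAM1 had 0 counts in every knockout library and 1 count in each vector library, and was not tested. The part of these shifts in the serpin differences was not tested.

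**Figure D5:**
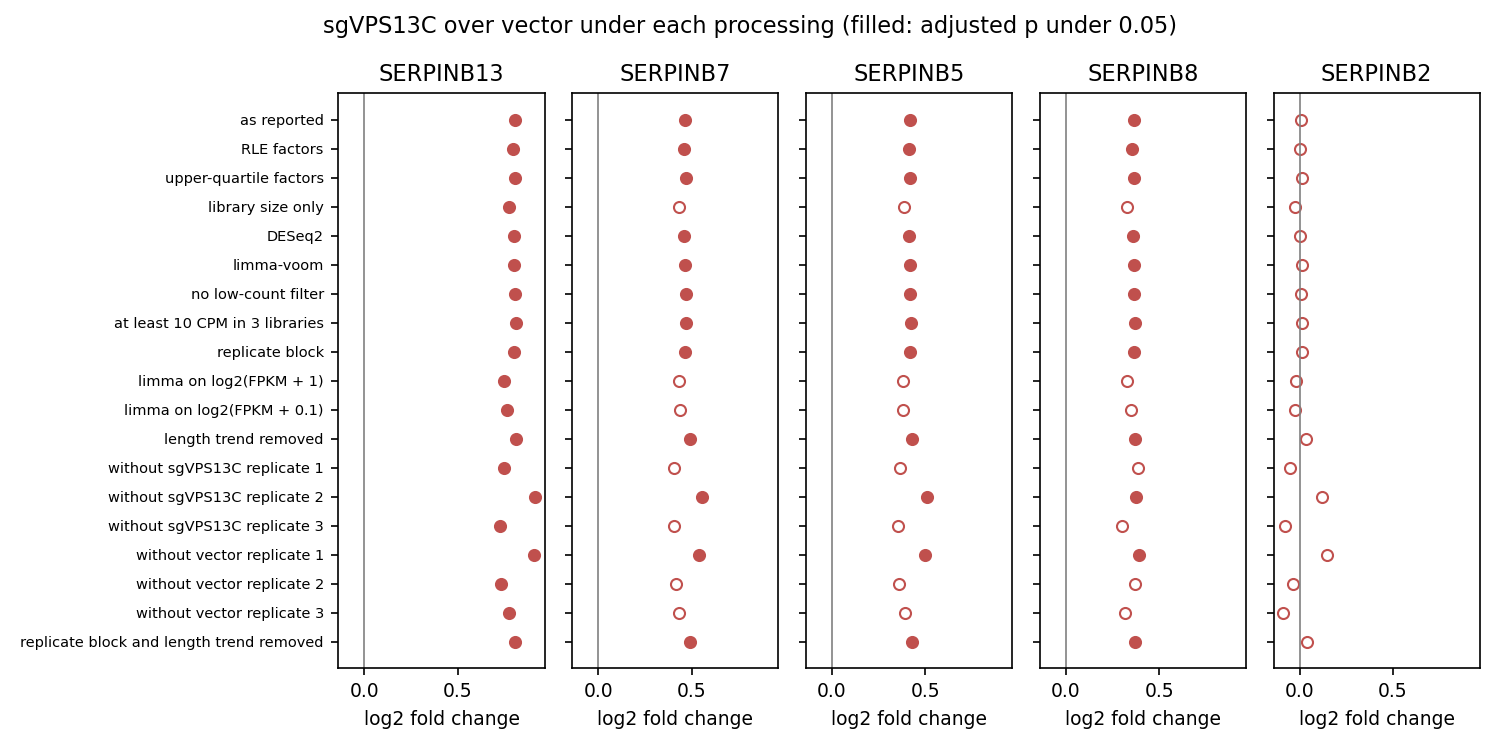
Log2 fold change, sgVPS13C over vector, of the 5 abundant members under the reported analysis (top) and each of 18 alternatives, with filled points for an adjusted p under 0.05. SERPINB13 is filled in every one, SERPINB7, SERPINB5 and SERPINB8 stay above 0 with open points in 7 alternatives each, and SERPINB2 lies around 0.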

How the data were processed

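RNA was measured by single-end sequencing with 50-base reads in 3 VPS13C knockout and 3 vector libraries, per the labels. The genome build was hg38 per the submitters' processing notes. No source used here names the aligner, the counter or the strand setting. The authors deposited, per gene and per transcript, an expected count (estimated, with fractions for transcripts), rounded here for every test, and FPKM, which the authors had corrected for length and depth, used here for levels, ratios, lengths and an alternative test. Other per-sample columns, 12 in either table, were not used.

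Genes were kept by filterByExpr (minimum count 10), scaled by TMM and tested with edgeR 4.0.16 (robust quasi-likelihood, prior count 2) in R 4.3.3, knockout over vector, and called at a Benjamini-Hochberg adjusted p under 0.05 over all genes. Transcripts were tested the same way and transcript balance with diffSpliceDGE and the Simes method. The scripts were tested on simulated data. Alternatives used DESeq2 1.42.0, limma 3.58.1, other scaling and filters, a replicate block, a length correction (loess, span 0.4) and each library left out. RefSeq positions (GRCh38.p14) were found for 17904 genes. Intervals from counts and the floor of 3 counts cover counting error only.

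Named were all clade B serpins, called genes of the other lists (at most 5 by smallest p), the nearest tested neighbours and the 3 most correlated genes (mean of at least 5 CPM) per member. A single gene of these lists is not reported here. Members and lists were chosen with earlier results of these data known. Figures were drawn with matplotlib 3.10.9.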

Additional observations from a re-analysis of the deposited data

How the results depend on the processing

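SERPINB13 stayed higher and called in all 18 alternatives. With library size only, limma on log2(FPKM + 1) and limma on log2(FPKM + 0.1), 1 member was called higher in each. Of 13717 tested genes, 2143, 2100 and 2104 were called higher in these analyses, against 2440 as reported. On the log2 scale SERPINB5 was then 0.39, 0.38 and 0.38, SERPINB7 0.43, 0.43 and 0.44, and SERPINB8 0.33, 0.33 and 0.35. SERPINB2 turned to -0.0254, -0.0215 and -0.0217. PLAU turned to -0.00168 with RLE factors, -0.0299 with library size only, -0.00169 with DESeq2, and -0.0308 and -0.0311 in the same FPKM analyses. The median log2 fold change of all tested genes was 0.00395 as reported, -0.0302 with library size only and -0.00269 with RLE factors. It was -0.00272 with DESeq2, and -0.0285 and -0.0351 in the same FPKM analyses. The cause of these turns was not tested. Leaving out 1 library at a time gave 1 to 4 members called higher, 1551 to 2552 genes higher and 1475 to 2491 lower, lowest without knockout library 3. It gave log2 ranges of -0.0891 to 0.146 for SERPINB2, 0.35 to 0.51 for SERPINB5, 0.41 to 0.56 for SERPINB7, 0.30 to 0.39 for SERPINB8, -0.10 to 0.43 for SERPINB3 and SERPINB4 summed, -0.0356 to 0.0436 for PLAU, -0.57 to 0.62 for SERPINB9, and -0.109 to 0.0475 for the ratio of SERPINB8 to SERPINB5. For transcripts it gave -0.38 to 0.17 for NM_003784.4, -0.0866 to 0.157 for NM_002575.3 and -0.00777 to 1.17 for NM_001348269.2, and the median next to SERPINB1 ran from -0.0827 to 0.183. All transcripts called numbered 962 as reported, 615 with no low-count filter, 279 with the replicate block and 17 to 294 with 1 library left out.

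With the replicate block 4049 genes were higher and 3890 lower, and with the replicate block and length trend removed, chosen after seeing the data, 4229 and 4188. In these fits VPS13C had -0.67 and -0.74 (adjusted p = 4.84e-05 and 2.91e-06) and SERPINB6 had -0.53 and -0.51 (adjusted p = 2.86e-04 and 8.41e-05), by edgeR's quasi-likelihood test. With the replicate block 4 members were called higher by the same test. SERPINB13 had 0.80 (adjusted p = 4.12e-06) and SERPINB7 had 0.46 (adjusted p = 2.92e-04). SERPINB5 had 0.42 (adjusted p = 5.07e-04) and SERPINB8 had 0.36 (adjusted p = 0.00467). Same-numbered libraries had deviations correlated at 0.65, 0.68 and -0.22. Libraries numbered 1 and 2 correlated best with their own number, and those numbered 3 with other numbers. With so few libraries this check cannot settle whether the numbers mark pairs. Depth limits SERPINB1, SERPINB3, SERPINB4, SERPINB12 and SERPINE3, and 3 libraries a group limit the rest.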
